A study of Homo sapiens with 18 samples.

Results

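The nuclear-encoded subunits of the respiratory chain and of ATP synthase were followed in 3 human lung cell lines, with and without exposure to X-rays. A gene was a member if its current symbol, looked up from its Entrez ID, began with NDUF followed by A, B, C, S or V and a digit (complex I), was SDHA, SDHB, SDHC or SDHD (complex II), began with UQCR or was CYC1 (complex III), began with COX4 to COX8 (complex IV), or began with ATP5F1, ATP5M or ATP5P (complex V). Pseudogenes were left out. The rule gave 84 of the 18475 genes in the table. They were 36 genes of complex I, 4 of complex II, 10 of complex III, 14 of complex IV, 18 of complex V and the 2 read-through loci NDUFC2-KCTD14 and ATP5MF-PTCD1, whose reads cannot be told apart from those of the subunit genes they span.

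Electrons from NADH enter the chain at complex I and those from succinate at complex II, pass through ubiquinone to complex III and through cytochrome c to complex IV, and there reduce oxygen. Complexes I, III and IV pump protons across the inner mitochondrial membrane, and complex V, the ATP synthase, uses the gradient to make ATP. A few core subunits are encoded in mitochondrial DNA. All the rest, including the whole of complex II, are made from nuclear genes in the cytosol and imported. Assembled complexes I, III, IV and V therefore need transcripts of both genomes.

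The study asked how lung lines differ in their response to radiation. Poly(A) RNA was sequenced as single-end reads of 50 bases in 18 libraries, 3 in each of 6 groups. BEAS-2B is a non-tumour bronchial epithelial line, H446 was labelled as small cell lung cancer and A549 as non-small cell lung cancer. Each line had an unirradiated control group and a group given 10 Gy of X-rays and collected 24 h later. Each group rests on 1 established line, and the labels do not say whether replicates were separate cultures, so that p-values measure only the spread between these libraries, which may be technical. Values are FPKM, a level scaled by transcript length and by the total of the library. The number of reads was not analysed here. The steps between low values of 29 to 36 genes per library gave a relative depth of 0.936 to 1.078 across the libraries. Only genes whose values fitted shared steps were kept, which draws this estimate towards equal depth, so similar depth is not shown. No gene of mitochondrial DNA was among the genes analysed here (0 genes).

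The labels were checked against a list of 15 p53 target genes, which rise after DNA damage in cells with active p53, and against cell type markers. CDKN1A, the cell cycle inhibitor p21, was at 79.93, 86.36 and 86.08 FPKM in the BEAS-2B controls and at 309.73, 102.24 and 487.79 after 10 Gy. The median log2 difference of the 15 genes from the control mean was 0.85, 0.045 and 1.057 in these 3 irradiated libraries. BEAS-2B 10 Gy replicate 2 therefore stood apart from the other 2 irradiated libraries and near the controls, and the counts of members called in BEAS-2B, and in its differences from the other lines, are given with and without it. In A549 the same medians were 1.266, 1.305 and 1.158 after irradiation, and 14 of the 15 genes rose. H446 had medians of 0.031, -0.047 and -0.041, with 2 genes higher and 2 lower. The neuroendocrine markers CHGA, SYP, NCAM1 and DDC, usual in small cell lung cancer, were near 0 in the H446 controls, with mean levels of 0.017, 0.19, 0.003 and 0.013 FPKM. The line is therefore called H446 here, without a tumour type. A549 had the aldehyde and aldo-keto enzymes ALDH1A1, AKR1B10 and ALDH3A1 at 1529, 485.6 and 656.9 FPKM in its controls, while the surfactant genes SFTPB and SFTPC were at 0.023 and 0.11. In the controls of BEAS-2B, H446 and A549 the keratin KRT8 was at 521.8, 1368 and 532.9 FPKM, vimentin at 898.1, 989.7 and 1471, and the leukocyte gene PTPRC at 0, 0.04 and 0. Other genes of the same lists differed. In the same order KRT18 was at 482.6, 1207 and 352.9, KRT7 at 315.1, 1337 and 833.9 and KRT19 at 9.80, 2.29 and 26.16. EPCAM was at 2.37, 1.11 and 0.49, CDH1 at 0.46, 0.59 and 7.05 and KRT5 at 0.01, 0.01 and 0. Of the blood and endothelial list, CD68 was at 9.74, 8.56 and 27.62, PECAM1 at 0.01, 3.81 and 0.01 and VWF at 0.01 in each.

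Most of the subunit genes were abundant. Of the 84 members, 77 had a mean over the 18 libraries of at least 10 FPKM, 43 of at least 100 FPKM and 5 of under 1 FPKM. The median of these means was 101.6 FPKM, and by complex it was 78.0 for complex I, 90.9 for complex II, 79.1 for complex III, 248.9 for complex IV and 146.7 for complex V. COX7C and COX7B, small membrane subunits of complex IV, led with means of 500.3 and 453.1 FPKM, followed by ATP5F1B, the catalytic beta subunit of ATP synthase, at 443.5 and COX6A1, the general isoform of subunit 6A, at 413.8. This order holds for means over all lines and not within each line. Single libraries ran from 302.5 to 705.3 FPKM for COX7B and from 396.6 to 493.8 for ATP5F1B. In the A549 controls ATP5F1B was above COX7B. At the other end, the muscle isoform COX7A1, the testis isoform COX7B2, the near copies UQCRHL and ATP5MGL and the read-through locus ATP5MF-PTCD1 had means of 0.04, 0.01, 0.16, 0.05 and 0.03 FPKM. These 5 genes did not pass the filter of at least 1 FPKM in at least 3 libraries in any line, and NDUFC2-KCTD14 passed it only in BEAS-2B. Tests therefore covered 79 members in BEAS-2B and 78 in H446 and in A549. UQCRH and its near copy UQCRHL, and ATP5MG and its near copy ATP5MGL, share sequence, so the split of reads within each pair is uncertain. NDUFA4, now named COXFA4 and placed in complex IV, fell outside the rule, and its group means lay between 44.46 and 56.36 FPKM. The isoforms COX4I2, COX6A2 and COX8C were not analysed here.

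Promoters were read to see which letters the members share. RefSeq promoters of the GRCh38.p14 assembly were matched for 67 of the 84 members, and the 250 bases before each start were searched on both strands for 4 short motifs bound by known regulators of respiratory genes or common in promoters. GCATGCGC, the core bound by NRF1, was present in 12 members (17.9%), against 2.8% of all 27305 promoters and 4.0% of the 14224 promoters of protein-coding genes in the table. CCGGAAG, an ETS-type letter order bound by GABPA, was present in 17 members (25.4%), against 8.8% and 12.9%. AAGATGG, bound by YY1, was present in 4 members (6.0%), against 3.8% and 3.4%, and CCAAT, bound by NF-Y, in 22 members (32.8%), against 33.0% and 34.6%. Matches that overlap were counted for each motif, and a match is a description of the letters, not evidence that a factor binds. Among members that fell in H446, 5 of 19 with a promoter held the NRF1 letters and 7 of 19 the ETS letters, and among those that rose in A549 the numbers were 1 and 3 of 15. Among members not called they were 7 and 10 of 42 in H446 and 8 and 12 of 46 in A549, among those that rose in H446 0 and 0 of 4, and among those that fell in A549 3 and 2 of 4. The last 120 bases before the start are printed for 5 members described later, with matches in capitals on the strand of the gene. NDUFA2 and NDUFS3 are shown because they rose in A549, and NDUFS6, UQCRH and COX7C because they had the highest mean of complexes I, III and IV among members with a promoter entry.
NDUFA2, chr5:140647631-140647750, minus strand: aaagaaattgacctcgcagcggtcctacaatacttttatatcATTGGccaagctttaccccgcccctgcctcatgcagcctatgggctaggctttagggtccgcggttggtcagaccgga
NDUFS3, chr11:47578954-47579073, plus strand: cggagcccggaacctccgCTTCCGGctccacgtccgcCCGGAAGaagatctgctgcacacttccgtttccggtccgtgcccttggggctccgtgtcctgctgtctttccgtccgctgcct
NDUFS6, chr5:1801287-1801406, plus strand: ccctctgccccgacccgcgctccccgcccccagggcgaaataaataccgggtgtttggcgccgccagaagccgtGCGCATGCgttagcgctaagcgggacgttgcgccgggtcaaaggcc
UQCRH, chr1:46303578-46303697, plus strand: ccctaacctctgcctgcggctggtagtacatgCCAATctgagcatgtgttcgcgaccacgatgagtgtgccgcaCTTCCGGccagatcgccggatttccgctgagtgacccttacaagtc
COX7C, chr5:86617821-86617940, plus strand: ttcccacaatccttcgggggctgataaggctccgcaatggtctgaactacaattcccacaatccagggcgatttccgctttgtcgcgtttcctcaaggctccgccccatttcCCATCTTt
In these stretches NDUFA2 held the CCAAT letters in reverse complement, NDUFS3 the ETS letters at 2 places, NDUFS6 the NRF1 letters, UQCRH the CCAAT and ETS letters and COX7C the YY1 letters. The same 120-base stretch of NDUFB3, NDUFB4 and SDHA held none of the 4 motifs.

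The summed level of the members was lower in the A549 controls than in those of the other lines. Sums and shares of the library total cover the 82 single-gene members, without the 2 read-through loci. It was 12047, 11003 and 13607 FPKM in the BEAS-2B controls, and after 10 Gy it was 11365, 12097 and 12573. For H446 the sums were 11804, 11560.3 and 12150.1 in the controls and 11228, 11639 and 10491 after 10 Gy. In A549 they were 9446, 9928 and 9218 in the controls and 10512, 10065 and 9563 after 10 Gy. The sums of irradiated and control libraries overlapped in each line, while all 3 A549 controls were below every control of the other lines. As a share of the library total, members made up 1.919, 1.98 and 1.904% in the A549 controls and 2.1, 2.032 and 1.948% in A549 after 10 Gy, 2.488, 2.457 and 2.521% in the H446 controls and 2.401, 2.438 and 2.274% in H446 after 10 Gy, and 2.358, 2.228 and 2.568% in the BEAS-2B controls and 2.298, 2.387 and 2.434% in BEAS-2B after 10 Gy. On this scale the irradiated H446 libraries were all below the H446 controls, and the summed FPKM of complexes I, III and V also did not overlap in H446. As mean ± SD (n = 3), the control sums were 12219 ± 1310.4 in BEAS-2B, 11838 ± 296.4 in H446 and 9531 ± 362.3 FPKM in A549. Replicates moved as a block: in BEAS-2B control replicate 3, 75 of the 77 members with a mean of at least 10 FPKM were above their group mean, and in BEAS-2B control replicate 2 only 5 were. The members thus share much of their replicate error, and a count of members that lean to the same side is not a count of independent observations. In bulk RNA, fewer cells that express a gene and less RNA per cell cannot be told apart.

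**Figure D1:**
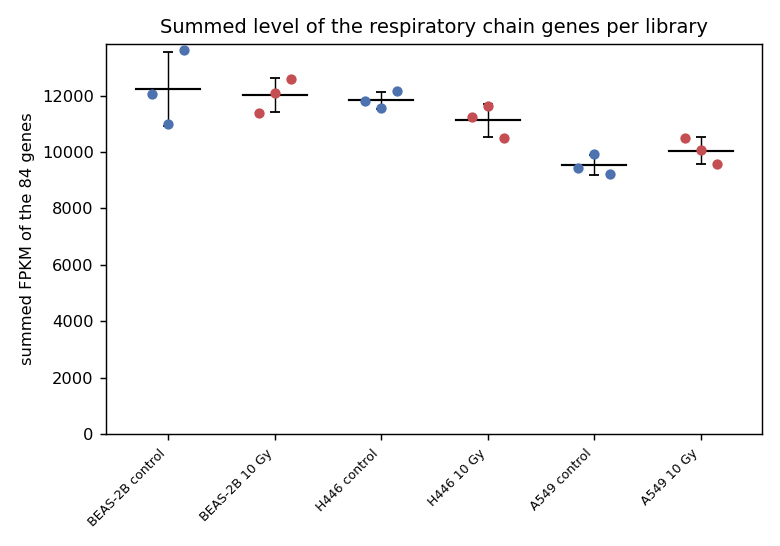
Summed FPKM of the 82 single-gene members in each library (points), with the mean (line) and SD (bars) of the 3 libraries of each group. The 2 read-through loci were not summed, although the axis label gives 84 genes. Blue is control and red 10 Gy. A549 controls, with a mean of 9531 FPKM, sit below those of the other lines, and the sums of control and 10 Gy libraries overlap within each line, although as a share of the library total the H446 groups do not.

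The unirradiated lines differed in most subunit genes, as they did in most of all genes tested, and A549 had the lowest level for most members. Among members with a mean of at least 10 FPKM, SDHA, UQCRFS1, NDUFA2 and NDUFS6, of 3 different complexes, each differed by over 1.5 on the log2 scale in at least 1 comparison of controls, and UQCRFS1 was not called between H446 and BEAS-2B (adjusted p = 0.666). Of the 79 members tested, BEAS-2B had the highest control mean for 42, H446 for 27 and A549 for 10, and A549 had the lowest for 51, H446 for 15 and BEAS-2B for 13. The 42 and the 51 include NDUFC2-KCTD14, which was tested only because of its level in BEAS-2B, so its place as highest there was set by the filter. The 3 comparisons of controls share groups with each other, so each is given by its own values.

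SDHA, the flavoprotein of complex II that oxidises succinate, was at 56.9, 60.6 and 60.4 FPKM in the A549 controls, 168, 182 and 165 in BEAS-2B and 247, 243 and 241 in H446. The 3 lines did not overlap, and the log2 difference was -1.52 (SE 0.05, adjusted p = 8.47e-12) for A549 against BEAS-2B and 2.02 (SE 0.05, adjusted p = 4.93e-13) for H446 against A549. UQCRFS1, the Rieske iron-sulphur protein of complex III, ran the other way. Its level was 247, 263 and 240.3 FPKM in A549, 83.9, 85.8 and 87.7 in BEAS-2B and 86.6, 86.0 and 88.7 in H446. All 3 A549 libraries were far above the others, which overlapped with each other, and the difference of A549 from BEAS-2B was 1.53 (SE 0.04, adjusted p = 3.99e-12). NDUFA2, an accessory subunit of the NADH-oxidising arm of complex I, was at 104, 84.4 and 115 FPKM in BEAS-2B, 45.3, 38.6 and 43.7 in H446 and 25.0, 28.0 and 24.2 in A549. The order was the same in every library, with differences from BEAS-2B of -1.22 (SE 0.10, adjusted p = 1.09e-07) in H446 and -1.93 (SE 0.10, adjusted p = 1.05e-09) in A549. NDUFS6, an accessory subunit of the same arm, was at 539, 482 and 553 FPKM in H446, 256, 238 and 273 in BEAS-2B and 125, 132 and 120.2 in A549. It was highest in every H446 library, by 1.04 (SE 0.06, adjusted p = 9.33e-09) over BEAS-2B and 2.05 (SE 0.06, adjusted p = 8.8e-12) over A549.

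In H446 against BEAS-2B controls, 23 members were higher and 41 lower of 79 (29.1% and 51.9%), while 36.0% and 46.7% of all 12854 genes tested were higher and lower. The 41 include the read-through locus NDUFC2-KCTD14, which was tested only because of its level in BEAS-2B, so its direction was set by the filter. The member median was -0.174 on the log2 scale and that of all genes -0.095. With libraries rescaled by the median ratio the split of members was 30 higher and 35 lower and the medians were -0.048 and 0.002. The higher members with the largest differences after NDUFS6 were NDUFB10 (0.96, adjusted p = 1.26e-09) and NDUFB4 (0.88, adjusted p = 5.48e-08), both of the distal membrane arm of complex I, ATP5F1D, the delta subunit of the central stalk of ATP synthase (0.78, adjusted p = 4.27e-08), and COX7B of complex IV (0.76, adjusted p = 3.26e-06). Lower in H446, beside NDUFA2, were ATP5MG, the g subunit of the membrane part of ATP synthase (-1.07), NDUFS4, an accessory subunit of complex I (-1.02), COX6C of complex IV (-0.99) and NDUFB2 of complex I (-0.98).

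A549 against BEAS-2B controls gave 15 members higher and 52 lower of 79 (19% and 65.8%), against 38.8% and 46.3% of all genes tested. The 52 include NDUFC2-KCTD14, which was tested only because of its level in BEAS-2B, so its direction was set by the filter. The member median was -0.445 and the all-gene median -0.075. Rescaling by the median ratio moved the all-gene median to 0.073 and the member median to -0.268, with 18 members higher and 46 lower. All 4 genes of complex II were lower in A549, as were 9 of the 10 in the NADH-oxidising module of complex I. Besides UQCRFS1, the higher members were led by ATP5MJ, a small ATP synthase subunit (0.62), NDUFB10 (0.50) and NDUFB6 (0.42) of complex I and COX5A of complex IV (0.40). The lower ones, after NDUFA2 and SDHA, were led by NDUFA8, an accessory subunit of complex I (-1.43), ATP5PO, the OSCP subunit of the peripheral stalk (-1.39), and COX7A2, the general isoform of subunit 7A (-1.23).

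H446 against A549 controls gave 49 members higher and 17 lower (62% and 21.5%), against 41.4% and 43.1% of all genes tested, with medians of 0.359 and -0.008. The 49 include the read-through locus NDUFC2-KCTD14, which was near or under 1 FPKM in both of these lines and was tested because of its level in BEAS-2B. Complex III was higher in H446 for 8 of 9 members tested, with UQCRFS1 the exception at -1.51. NDUFA8 (1.43), NDUFS5 (1.39), an accessory subunit of the proximal membrane arm of complex I, and UQCRH (1.24), the hinge protein beside cytochrome c1, followed SDHA and NDUFS6. Among those lower in H446 were COX7A2L, a factor that joins complexes III and IV (-0.91), COX6B1, the general isoform of subunit 6B (-0.72), NDUFB6 (-0.63) and NDUFA10 (-0.58) of complex I. Each member given above with its log2 difference was called for that comparison in every fit that left out 1 library. Over all members named in this report and called, this held for 30 of 34 in H446 against BEAS-2B. It held for 35 of 36 in A549 against BEAS-2B and for 34 of 37 in H446 against A549. Under all 5 other settings run for these comparisons, 30, 33 and 34 of them were called. Many of these members were named for large differences and the fits share libraries, so the counts do not stand for all members called.

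The read-through locus NDUFC2-KCTD14 was at 6.74, 6.88 and 8.04 FPKM in the BEAS-2B controls, 1.02, 0.73 and 0.81 in H446 and 0, 0.11 and 0.1 in A549. It was higher in all 3 BEAS-2B libraries than in any other, and passed the filter there alone. NDUFC2 itself, an accessory subunit of complex I, was at 46.7, 46.1 and 52.0 FPKM in BEAS-2B, 35.7, 35.7 and 36.2 in H446 and 26.0, 25.3 and 23.1 in A549.

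In BEAS-2B no subunit gene passed the test after 10 Gy. The limma fit called 0 of 79 members higher and 0 lower, against 0 and 0 percent of all 11734 genes tested, and 0 members had an unadjusted p below 0.05, against 1446 genes in all. Member differences ranged from -0.196 to 0.22 with a median of -0.011, beside an all-gene median of 0.002. With all 18 libraries in 1 fit 511 of these genes were higher and 350 lower, and with a replicate block 344 and 95, with 0 members in either direction each time. Without 10 Gy replicate 2, limma called 1.92% of 11680 genes higher and 0.0771% lower, all 15 p53 target genes among the higher ones, and still 0 members in either direction. Replicate 2 had been set apart by these same 15 genes, so their calls in this fit are not separate evidence. In that fit 0 members had an unadjusted p below 0.05, against 1382 genes in all, and the medians were -0.02 for members and -0.003 for all genes. The standard error of a member was larger in BEAS-2B, with a median of 0.096 against 0.049 in H446 and 0.051 in A549, so small differences were harder to detect there.

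All 3 irradiated BEAS-2B libraries lay above all 3 controls for 2 members and below them for 0 of 79, against 7.48% and 8.87% of all genes tested. NDUFS8, a core iron-sulphur subunit of complex I, was at 147, 145 and 159 FPKM in the controls and 159, 169.6 and 169 after 10 Gy. UQCRFS1 was at 89.6, 88.2 and 91.6 FPKM after 10 Gy, with its controls as given above. Neither passed the test, with log2 differences of 0.14 (adjusted p = 0.45) and 0.06 (adjusted p = 0.69). Both were named after their values were seen. NDUFA2, which rose in A549, was at 95.2, 108 and 103 FPKM in irradiated BEAS-2B, inside the range of its controls given above. ATP5MC1, a gene for the c subunit of the ATP synthase rotor ring, was at 113, 112 and 125 FPKM in the controls against 107, 139 and 104 after 10 Gy, and its highest irradiated library was 10 Gy replicate 2. Across the 79 members the log2 difference correlated with transcript GC content (Spearman's rho 0.55 across genes, which are not independent; 0.6 over all genes), and without 10 Gy replicate 2 the values were 0.19 and 0.36. The part of GC content in these differences was not tested.

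In H446 more subunit genes were lower than higher after 10 Gy, as were more of all genes, and with the length trend removed the members split into 12 higher and 11 lower. The largest falls were in ATP synthase and in complex I. ATP5MC1 fell by 0.44 on the log2 scale, and NDUFA3, ATP5F1D, NDUFA13 and UQCR11 fell by between 0.29 and 0.34. NDUFS4, NDUFA5 and ATP5PB rose by smaller amounts. Of 78 members tested, 4 were higher and 23 lower (5.13% and 29.5%), beside 14.8% and 23.6% of all 11479 genes tested, and the medians were -0.073 for members and -0.033 for all genes. All irradiated libraries lay above all controls for 8 members and below them for 25 (10.3% and 32.1%), beside 20.4% and 29.9% of all genes tested.

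ATP5MC1 was at 95.6, 104 and 93.7 FPKM in the H446 controls and 77.3, 73.7 and 64.7 after 10 Gy. All irradiated libraries were below all controls, and the difference was -0.44 (SE 0.06, adjusted p = 0.000511). Of the other 2 genes for the same c subunit, ATP5MC2 fell by 0.19 (SE 0.05, adjusted p = 0.0137) and ATP5MC3 fell by 0.17 (SE 0.05, adjusted p = 0.0157). The call was lost for ATP5MC2 without H446 control replicate 3, without the filter and with the GC trend removed (-0.08, adjusted p = 0.298), and for ATP5MC3 without control replicate 2 or 10 Gy replicate 3, without the filter and with all 18 libraries in 1 fit. NDUFA13, an accessory subunit of complex I also known as GRIM-19, went from 126, 123 and 125 to 104, 100.4 and 92.8 FPKM. The groups did not overlap, and the difference was -0.33 (SE 0.04, adjusted p = 0.000271). UQCR11, a small subunit of complex III, went from 38.0, 39.0 and 37.1 to 32.4, 31.9 and 28.4 FPKM, again without overlap, a difference of -0.29 (SE 0.05, adjusted p = 0.00161). These calls of ATP5MC1, NDUFA13 and UQCR11 held in each of the 6 fits that left out 1 library and under each of the 10 other settings, but with the GC trend removed the fall of NDUFA13 shrank to 0.16 (adjusted p = 0.00565).

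ATP5F1D, the delta subunit of the central stalk, was at 119, 124 and 119 FPKM in the controls and 98.2, 103 and 85.5 after 10 Gy. Its irradiated libraries were all lower and it fell by 0.34 (SE 0.06, adjusted p = 0.00172), but its transcript was among the richest in GC and with the GC trend removed the difference was -0.05 (adjusted p = 0.533). NDUFA3, an accessory subunit of complex I, went from 123, 106 and 116 to 91.8, 100.3 and 80.1 FPKM. It fell by 0.34 (adjusted p = 0.00596), and the call was lost when no filter on low values was used. CYC1, the cytochrome c1 of complex III, fell by 0.25 (adjusted p = 0.00101), and this call was lost with the GC trend removed (-0.08, adjusted p = 0.2).

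NDUFS4, an accessory subunit of the NADH-oxidising arm, was at 62.3, 70.0 and 62.2 FPKM in the controls and 76.7, 82.7 and 73.3 after 10 Gy. Its irradiated libraries were the higher ones, by 0.26 (SE 0.06, adjusted p = 0.0053), a call lost without the filter or with all 18 libraries in 1 fit. NDUFA5, an accessory subunit near the quinone site, was higher by 0.17 (SE 0.06, adjusted p = 0.0362). The call of NDUFA5 was lost without H446 control replicate 1 or 3 and without 10 Gy replicate 2 or 3. ATP5PB, the b subunit of the peripheral stalk, was higher by 0.13 (SE 0.03, adjusted p = 0.0132), and its call was lost without control replicate 1. With the GC trend removed neither was called, at 0.07 for NDUFA5 (adjusted p = 0.286) and 0.09 for ATP5PB (adjusted p = 0.053). The remaining rise was that of COX6B2, the testis isoform of subunit 6B, at low level, from 2.67, 2.27 and 2.62 to 3.58, 3.41 and 3.17 FPKM, a difference of 0.32 (SE 0.08, adjusted p = 0.00786).

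By complex, H446 had 2 members higher and 12 lower of 36 in complex I, 0 and 4 of 9 in complex III, 1 and 1 of 12 in complex IV and 1 and 6 of 17 in complex V, with medians of -0.08, -0.162, -0.06 and -0.103. For the same 4 complexes the higher and lower counts were 2 and 5, 0 and 3, 2 and 0 and 0 and 4 with the GC trend removed, and 5 and 4, 0 and 2, 3 and 0 and 2 and 5 with the length trend removed. Complex II had 0 called of 4 by limma, with 2 at an unadjusted p below 0.05 and a median of 0.081. Within complex I, 5 of 11 subunits of the distal membrane arm and 4 of 10 of the proximal arm were lower, as were 2 of 5 of the quinone module and 1 of 10 of the NADH-oxidising module, with 1 higher in each of these last 2, beside 14.8% of all genes higher and 23.6% lower. With the GC trend removed the distal arm, proximal arm, quinone module and NADH-oxidising module had 1, 3, 0 and 1 lower, and with the length trend removed 0, 3, 0 and 1. The counts of the distal arm and quinone module were thus not kept, and with the length trend removed the distal arm had 2 higher. The lower gene of the NADH-oxidising module was NDUFV3 in the main fit but NDUFS1 with either trend removed, so that call was not kept either. In complex V, 5 of the 6 lower members belonged to the membrane part and peripheral stalk (of 12 tested), and the sixth was ATP5F1D.

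The H446 differences moved with base composition. Across the 78 members the log2 difference had a Spearman's rho of -0.52 with transcript GC content and 0.26 with transcript length, beside -0.49 and 0.17 across all 11378 genes with these values (a description across genes, which are not independent replicates). Members called lower had a median GC content of 54.7% and those called higher of 43.0%, beside 48.6% for all members. With the GC trend over all genes removed, 5 members were higher and 12 lower, beside 16.0% and 14.7% of all genes, and the member median was -0.027. With the length trend removed, 12 were higher and 11 lower, beside 20.0% and 18.5%, and the median was -0.003. The lean of the H446 members towards lower values was not seen once the length trend was taken out. What part GC content or length had in it was not tested. Without H446 control replicate 1, the count of higher members was 2 in place of 4. Of the 4 higher and 23 lower members, 1 and 3 were called under every setting and with every library left out in turn.

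**Figure D2:**
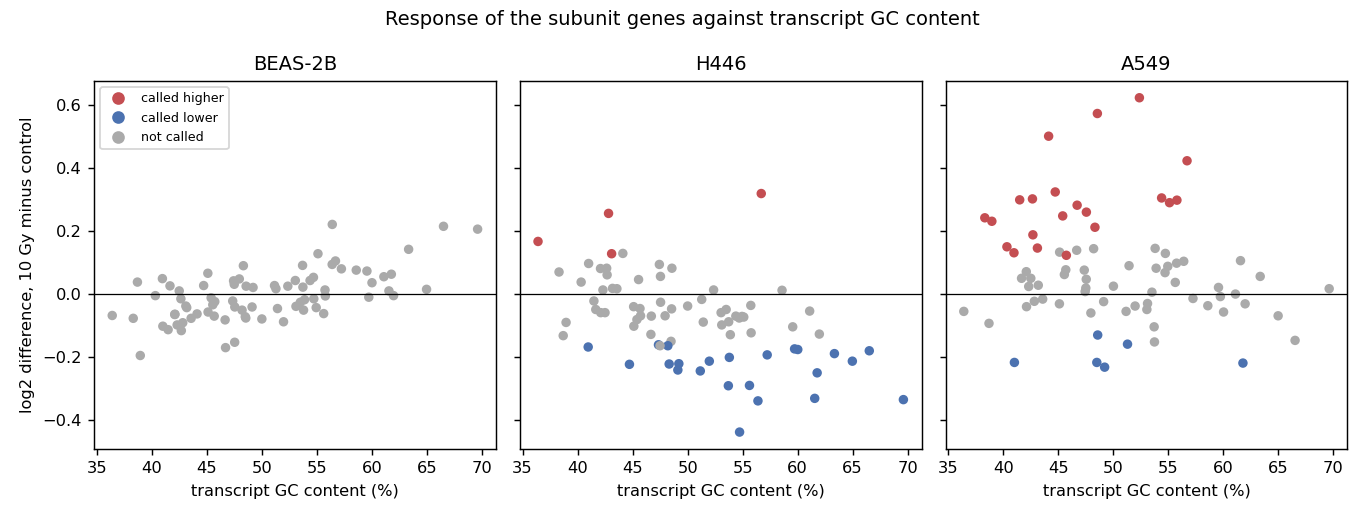
Log2 difference (10 Gy minus control, log2 of FPKM + 1) of each tested member against the GC content of its transcript in percent, 1 panel per line; red points were called higher, blue lower, grey not called. In H446 the members called lower have a median GC content of 54.7% and the trend runs downward, while in BEAS-2B it runs upward with no member called.

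A549 had the clearest rises. NDUFA2, NDUFS5 and NDUFB3, accessory subunits of 3 different modules of complex I, rose by between 0.50 and 0.62 on the log2 scale, and NDUFB4 and NDUFS3 by 0.32 and 0.30. Complex II was split, with SDHA and SDHC higher and SDHB and SDHD lower. Of 78 members, 21 were higher and 6 lower (26.9% and 7.69%), beside 25.3% and 26.4% of all 11993 genes tested. The share of members that rose was therefore near that of all genes, and the share that fell was smaller. The medians were 0.049 and -0.004, and all irradiated libraries lay above all controls for 22 members and below them for 5 (28.2% and 6.41%), beside 29% and 29.5% of all genes tested.

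NDUFA2 was at 25.0, 28.0 and 24.2 FPKM in the A549 controls and 41.6, 37.6 and 41.2 after 10 Gy. Every irradiated library was above every control, by 0.62 (SE 0.06, adjusted p = 4.17e-06), yet all remained below the BEAS-2B libraries. NDUFS5 went from 118, 131 and 123 to 196, 181 and 177 FPKM, a difference of 0.57 (SE 0.05, adjusted p = 1.69e-06). Its groups were well separated, and its irradiated A549 libraries were still below each library of the other lines. NDUFB3, of the distal membrane arm, went from 71.6, 65.1 and 61.3 to 94.3, 94.9 and 91.7 FPKM, a difference of 0.50 (SE 0.05, adjusted p = 7.76e-06). Here the irradiated libraries reached the range of the BEAS-2B controls.

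NDUFB4, also of the distal arm, was at 113, 119.6 and 110.0 FPKM in the controls and 156, 136 and 138 after 10 Gy, without overlap, a difference of 0.32 (SE 0.05, adjusted p = 0.000297). NDUFS3, a core subunit of the quinone module, went from 37.1, 36.9 and 38.4 to 46.7, 46.1 and 46.6 FPKM. Its groups did not overlap either, and the difference was 0.30 (SE 0.04, adjusted p = 3.68e-05). The calls of these 5 complex I genes held in all 6 fits that left out 1 library and under all 10 other settings. In total 9 of the 36 complex I members were higher and 2 lower, with a median of 0.061, so the share that rose (25%) was near the 25.3% of all genes while 26.4% of all genes fell, and 5 of the 9 higher ones were among the 11 of the distal membrane arm.

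**Figure D3:**
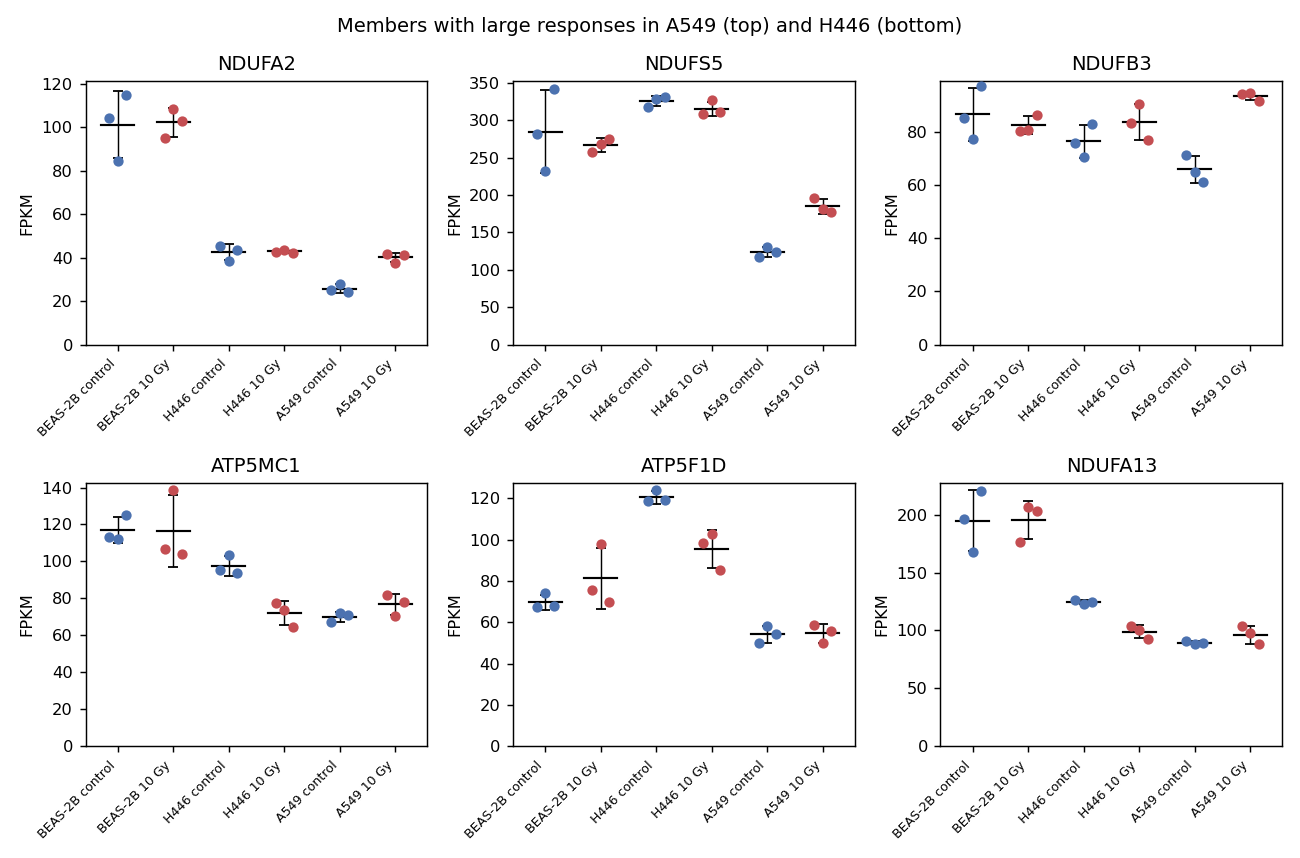
FPKM in every library for NDUFA2, NDUFS5 and NDUFB3 (top) and ATP5MC1, ATP5F1D and NDUFA13 (bottom), with the mean (line) and SD (bars) of the 3 libraries of each group; blue is control and red 10 Gy. The top genes rose in A549 and the bottom genes fell in H446, the fall of ATP5F1D being called only while the GC trend was left in.

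The 4 genes of complex II moved in opposite directions in A549. SDHA went from 56.9, 60.6 and 60.4 to 74.1, 71.4 and 72.5 FPKM and SDHC, a membrane anchor, from 31.0, 30.3 and 30.6 to 36.6, 39.6 and 37.6. In both, every irradiated library was above every control, by 0.29 (SE 0.04, adjusted p = 7.24e-05) and 0.30 (SE 0.04, adjusted p = 9.34e-05). SDHD, the other membrane anchor, went from 76.8, 78.7 and 71.6 to 66.2, 65.4 and 63.1 FPKM. Its irradiated libraries were all lower, and it fell by 0.22 (SE 0.04, adjusted p = 0.0011). SDHB, the iron-sulphur subunit, went from 83.8, 87.3 and 85.3 to 80.1, 79.7 and 74.2 FPKM. It was also lower in every irradiated library, and fell by 0.13 (SE 0.04, adjusted p = 0.0165). The SDHB call was lost without A549 control replicate 2 or 10 Gy replicate 3, and with quantile normalization, median-ratio scaling, no trend in limma, no filter or all libraries in 1 fit, while the calls of SDHA, SDHC and SDHD held throughout. In the same complex the H446 values were -0.07 for SDHA, 0.08 for SDHB, 0.08 for SDHC and 0.10 for SDHD, and those of BEAS-2B 0.13, 0.02, -0.02 and -0.10 (0.11, 0.06, 0.00 and -0.09 without 10 Gy replicate 2), with none called in either line. With the length trend removed, SDHB and SDHD were called higher in H446 (0.17 and 0.17), and SDHB also with the GC trend removed (0.10). The summed level of the 4 genes in A549 was 248.4, 256.9 and 247.9 FPKM in the controls and 257.1, 256.0 and 247.4 after 10 Gy, so the sums overlapped.

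**Figure D4:**
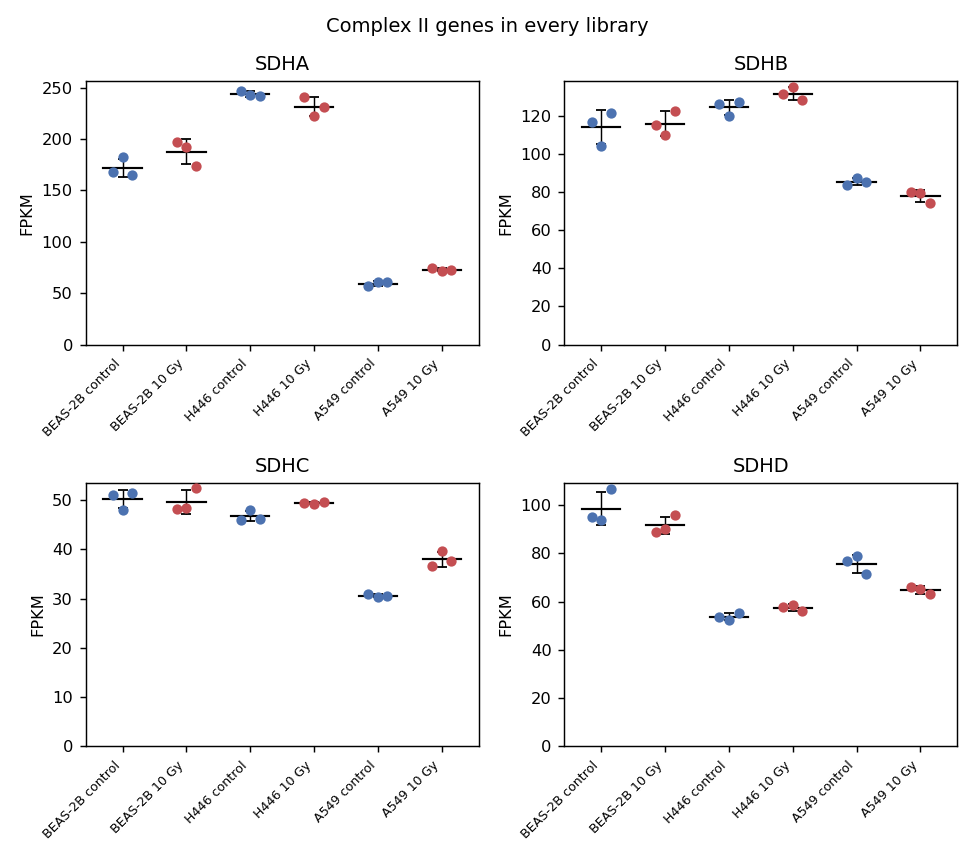
FPKM of SDHA, SDHB, SDHC and SDHD in every library, with the mean (line) and SD (bars) of the 3 libraries of each group; blue is control and red 10 Gy. In A549 SDHA and SDHC are higher and SDHB and SDHD lower after 10 Gy, SDHB with a call that 2 of the 6 left-out libraries and 5 of the 10 other settings ended.

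Complex IV had 5 members higher and 0 lower of 12 in A549 by limma, beside 25.3% of all genes higher and 26.4% lower. The median was 0.078, and the same 5 members were those with an unadjusted p below 0.05. COX7B went from 303, 309 and 304 to 392, 394 and 342 FPKM, a difference of 0.30 (SE 0.05, adjusted p = 0.000412). COX6B1, on the face of the complex that meets cytochrome c, rose by 0.30 (adjusted p = 0.00044), COX7A2 by 0.28 (adjusted p = 0.000109) and COX7C by 0.23 (adjusted p = 0.00151), and the COX7C call was lost with all libraries in 1 fit. COX6B2 was at low level, with 1.35, 1.56 and 1.68 FPKM in the controls against 2.49, 2.15 and 2.53 after 10 Gy, and rose by 0.42 (adjusted p = 0.0013). In complex III, UQCRB, an accessory subunit, rose by 0.24 (adjusted p = 0.0015) and CYC1 fell by 0.22 (adjusted p = 0.000863), with the other 7 of 9 not called. In complex V, 4 of 17 were higher (23.5%, near the share of all genes) and 1 lower, with a median of 0.036. The lower one was ATP5F1B, from 480.5, 494 and 483 to 440.4, 445 and 419 FPKM, a difference of -0.16 (SE 0.04, adjusted p = 0.00333). Its partner in the catalytic hexamer, ATP5F1A, was higher by 0.12 (SE 0.03, adjusted p = 0.01).

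The falls in A549 were few. CYC1 was at 89.8, 93.4 and 87.4 FPKM in the controls and 80.6, 76.9 and 74.4 after 10 Gy, with every irradiated library lower. NDUFA6, an accessory subunit of the LYR-motif family in complex I, fell by 0.22 (adjusted p = 0.00347), a call lost with all libraries in 1 fit. NDUFC1, of the proximal membrane arm, fell by 0.23 (adjusted p = 0.0157), and its call was lost without A549 control replicate 2 or 10 Gy replicate 3. Without A549 10 Gy replicate 1, 10 members were lower in place of 6. Of the 21 higher and 6 lower members, 14 and 3 were called under every setting and with every library left out in turn. Spearman's rho of the A549 differences with GC content was -0.2 across members and -0.01 across all genes.

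**Figure D5:**
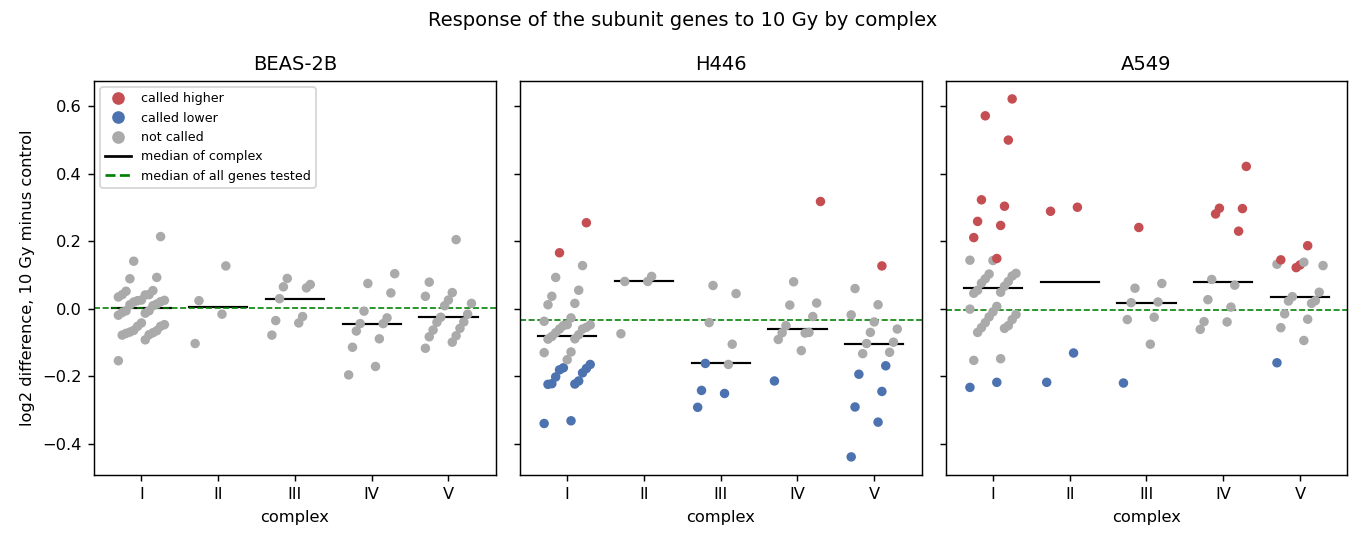
Log2 difference (10 Gy minus control, log2 of FPKM + 1) of each tested member by complex, 1 panel per line; red points were called higher, blue lower, grey not called, black lines are medians of a complex and the green dashed line the median of all genes tested. BEAS-2B has 0 members called, H446 has 23 lower and 4 higher, with 11 lower and 12 higher once the length trend is removed, and A549 has 21 higher and 6 lower.

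The members called in the 2 tumour lines were mostly different ones. Of the 27 called in H446 and the 27 in A549, 7 were called in both, 25.9% of each list and 8.97% of the 78 tested in both. Over all 10811 genes tested in both lines, 2256 were called in both (20.9%), which is 53.8% of the H446 calls and 40.1% of the A549 calls, 1274 in the same direction and 982 in opposite directions. Call rates also differed, which changes the overlap to be had. Of these genes 38.8% were called in H446 and 52.0% in A549, and of members 34.6% in each line. ATP5PB (0.13 in H446 and 0.14 in A549) and COX6B2 (0.32 and 0.42) were higher in both lines. CYC1 (-0.25 and -0.22) and NDUFC1 (-0.22 and -0.23) were lower in both. Opposite directions were found for NDUFB4 (-0.22 and 0.32), NDUFB2 (-0.22 and 0.21) and ATP5MC3 (-0.17 and 0.13). Of these calls, those of COX6B2 and CYC1 were kept in both lines when any 1 library was left out, although the H446 call of CYC1 was lost with the GC trend removed. Those of the other 5 were lost in at least 1 line when single libraries were left out: for ATP5PB H446 control replicate 1, for NDUFC1 A549 control replicate 2 or A549 10 Gy replicate 3, for NDUFB4 H446 control replicate 1, for NDUFB2 H446 control replicate 1 or 2, H446 10 Gy replicate 2 or 3, A549 control replicate 1 or A549 10 Gy replicate 1, and for ATP5MC3 H446 control replicate 2, H446 10 Gy replicate 3 or any A549 library but 10 Gy replicate 3. NDUFB2 was not called in H446 with the GC trend removed, but its difference stayed about as large (-0.20, adjusted p = 0.0549). With the length trend removed it was -0.13 (adjusted p = 0.177), also not called. ATP5MC3 was not called in A549 with the length trend removed, where its difference was nearly the same (0.12, adjusted p = 0.0723). NDUFB4 was at 272, 242 and 257 FPKM in the H446 controls and 223, 236 and 200.3 after 10 Gy, lower in each irradiated library, and its H446 call was also lost without the filter and with the length trend removed (-0.11, adjusted p = 0.0609).

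Whether the response itself differed between lines was tested as the difference of the log2 differences, in 1 fit over the 18 libraries. The 3 such comparisons share groups, so each is given by its own values. The response of A549 was above that of H446 for 18 of 79 members and below it for 2, beside 19.3% and 15.3% of all 13071 genes tested, with medians of 0.144 for members and 0.035 for all genes. NDUFS5 and NDUFA2 led, with differences of response of 0.62 (SE 0.13, adjusted p = 0.00115) and 0.61 (SE 0.13, adjusted p = 0.00116). ATP5MC1 followed with 0.57 (SE 0.13, adjusted p = 0.0024) and NDUFB4 with 0.55 (SE 0.10, adjusted p = 0.000582), the last with opposite calls in the 2 lines, of which the fall in H446 was not called without H446 control replicate 1 or with the length trend removed. NDUFA3 differed by 0.44 (SE 0.16, adjusted p = 0.0408), but only in 11 of the 18 fits that left out 1 library: the call was lost without H446 control replicate 1 or 3, H446 10 Gy replicate 1 or 3, A549 control replicate 2 or 3 or A549 10 Gy replicate 1. All 4 genes of complex II differed, SDHA (0.36, adjusted p = 0.000951) and SDHC (0.22, adjusted p = 0.0119) upward in A549 and SDHD (-0.31, adjusted p = 0.00287) and SDHB (-0.21, adjusted p = 0.0437) downward, where SDHB was called in 5 of the 18 fits with a library left out. Of the 16 named members called in this comparison, 11 were called in all 18 such fits. The total of 20 members fell to between 11 and 13 without H446 control replicate 1, H446 10 Gy replicate 3, A549 control replicate 3 or A549 10 Gy replicate 1.

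The response of BEAS-2B was below that of A549 for 11 of 79 members and above it for 2, beside 14.6% and 16.0% of all genes tested, with medians of -0.071 and 0. NDUFS5 (-0.65, adjusted p = 0.00102), NDUFA2 (-0.60, adjusted p = 0.00173), NDUFB3 (-0.56, adjusted p = 0.00109), COX7A2 (-0.45, adjusted p = 0.0146) and SDHC (-0.32, adjusted p = 0.00118) were lower in BEAS-2B, each called in all 18 fits with a library left out. COX7C differed by -0.43 (SE 0.14, adjusted p = 0.0279) and was called in 10 of these 18. Its call was lost without BEAS-2B control replicate 1 or 3, BEAS-2B 10 Gy replicate 1 or 2, A549 control replicate 1 or 3 or A549 10 Gy replicate 1 or 2. Without BEAS-2B 10 Gy replicate 2, 9 members were below and 1 above, beside 13.9% and 16.1% of all genes, and the differences were -0.65 for NDUFS5, -0.64 for NDUFA2, -0.55 for NDUFB3, -0.40 for COX7A2 and -0.30 for SDHC. The 13 members called in either direction became 7 without BEAS-2B control replicate 1 or A549 10 Gy replicate 1, 8 without BEAS-2B control replicate 3, BEAS-2B 10 Gy replicate 1, A549 control replicate 3 or A549 10 Gy replicate 2, and 6 without A549 control replicate 1.

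The response of BEAS-2B was above that of H446 for 7 of 79 members and below it for 0 by limma. Of all genes tested, 13.7% were above and 8.99% below, and the medians were 0.075 for members and 0.032 for all genes. At an unadjusted p below 0.05 there were 18 members, which cannot be set beside these shares, since those rest on adjusted p-values. ATP5F1D (0.54, adjusted p = 0.011), NDUFS8 (0.33, adjusted p = 0.013) and CYC1 (0.31, adjusted p = 0.0143) were called in all 18 fits with a library left out. ATP5MC1 (0.42, adjusted p = 0.0261) was not called without BEAS-2B control replicate 1, BEAS-2B 10 Gy replicate 2, H446 control replicate 2 or H446 10 Gy replicate 3. NDUFS7, a core iron-sulphur subunit of complex I (0.40), and NDUFA13 (0.34) were called in 12 and 9 of the 18. Without BEAS-2B 10 Gy replicate 2, 3 members were above and 0 below, beside 11.8% and 6.69% of all genes, and the differences were 0.40 for ATP5F1D, 0.32 for NDUFS8 and 0.27 for CYC1, all called, and 0.29 for ATP5MC1, 0.29 for NDUFS7 and 0.30 for NDUFA13, not called. With the GC trend removed 1 was above and 1 below, and none of the 6 genes named here was called. The differences of response had a Spearman's rho with GC content of 0.63 across members and 0.66 across all genes, and the part of GC content was not tested. The 7 members called became 3 without BEAS-2B control replicate 1, BEAS-2B 10 Gy replicate 2 or H446 10 Gy replicate 3, 4 without H446 control replicate 1 or 2, and 11, 14 and 16 without BEAS-2B control replicate 2, control replicate 3 and 10 Gy replicate 3.

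Genes that build or serve the chain were described from lists of other pathway genes. In A549 the regulators of mitochondrial biogenesis were mostly lower while more subunit genes were higher than lower. Of 14 regulators tested, 0 were higher and 10 lower by limma, with 11 at an unadjusted p below 0.05 and a median of -0.221, beside 25.3% and 26.4% of all genes higher and lower. PPRC1, a coactivator of the PGC-1 family, fell by 0.56 (adjusted p = 2.88e-06), TFB2M, a mitochondrial transcription factor, by 0.50 (adjusted p = 1.82e-05) and TWNK, the mitochondrial DNA helicase, by 0.46 (adjusted p = 2.54e-05). NRF1 itself fell by 0.21 (adjusted p = 0.0275), and the ETS factor subunits GABPA and GABPB1 by 0.23 and 0.40 (adjusted p = 0.00981 and 8.55e-05). NRF1 and the GABP subunits were named after their values were seen. In H446, 0 of 15 regulators were higher and 4 lower by limma (26.7% lower, near the 23.6% of all genes; 14.8% of all genes were higher), with 6 at an unadjusted p below 0.05, led by PPRC1 (-0.43), POLRMT, the mitochondrial RNA polymerase (-0.33), and the nuclear receptor ESRRA (-0.33 with SE 0.07).

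Assembly factors moved both ways in A549, where 25.3% of all genes were higher and 26.4% lower. For complex I, 2 of 18 were higher and 1 lower, with NDUFAF8 at 0.32 and NDUFAF7 at 0.18 on the log2 scale and NDUFAF4 at -0.42. For complexes II to V, 8 of 35 were higher and 11 lower, with the copper-site factor COX19 at -0.56, the haem A enzyme COX10 at -0.39 and PET100 at 0.38. Carriers and regulators of the chain gave 4 of 23 higher and 6 lower, among them the uncoupling protein UCP2 at 0.60, the ubiquinone kinase COQ8A at 0.54 and ATP5IF1, the inhibitor of ATP synthase, at 0.33. The citric acid cycle gave 4 of 17 higher and 4 lower, with SUCLA2 at 0.24, fumarase FH at -0.18 and citrate synthase CS at -0.15. In H446, where 14.8% of all genes were higher and 23.6% lower, the same 4 lists gave 0 of 18 higher and 4 lower, 1 of 35 and 11, 0 of 23 and 8, and 0 of 17 and 5, and their largest falls were NDUFAF8 (-0.34), SCO2 (-0.42), COQ4 (-0.26) and CS (-0.26). At an unadjusted p below 0.05 these H446 lists had 6, 15, 9 and 8 genes. These counts cannot be set beside the shares of all genes, which rest on adjusted p-values. In BEAS-2B limma called 0 genes of each of the 5 lists, with 0, 2, 1, 0 and 3 at an unadjusted p below 0.05 for complex I assembly, complex II to V assembly, carriers, the citric acid cycle and biogenesis. Without 10 Gy replicate 2 limma again called 0 of each, with 0, 2, 2, 0 and 0 at an unadjusted p below 0.05. Mitochondrial ribosomal proteins, a set added after values were seen, had 10 of 77 higher and 31 lower in A549 (median -0.072) and 9 and 22 in H446 (median -0.049).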

How the data were processed

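Poly(A) RNA of 18 libraries was sequenced as single-end reads of 50 bases on the BGISEQ-500. The authors deposited FPKM per gene in 1 table, and their processing notes name HISAT2 2.0.4, Bowtie2 2.2.5, RSEM 1.2.12 and the hg38 build. The unit was taken from the methods and from totals of 461255 to 529936 per library. Read counts were not analysed here, so no interval for counting error is given, and low values are less precise.

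Current symbols were looked up by Entrez ID, which matched 18181 of 18475 genes. Log2(FPKM + 1) was tested gene by gene with limma 3.58.1 (R 4.3.3, empirical Bayes with a mean-variance trend) over all genes with at least 1 FPKM in at least 3 libraries of the comparison, and p-values were adjusted over all of them by Benjamini-Hochberg; a gene was called at an adjusted p below 0.05. Fold changes on this scale understate the change of low genes. Apart from the members in BEAS-2B, counts at an unadjusted p below 0.05 are given without that of all genes. They show no excess by themselves. Each line was fitted on its own 6 libraries, differences of response on all 18 as 6 group means (genes that passed in at least 1 line) and controls on 9. An exact permutation test of 3 against 3 cannot go below 0.1, so none was used.

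Members named in each comparison were the 5 called ones with the largest difference in each direction (mean of at least 10 FPKM), the 5 largest differences of response, the SDH genes, the most abundant member of each complex and the tissue-restricted isoforms; 3 genes were named from each other list, and further names were chosen after values were seen. The members and lists were chosen with earlier results of these data known. Alternatives were quantile normalization, rescaling to equal totals or by the median ratio of genes, no trend, a pseudocount of 0.1, no filter, all libraries in 1 fit, a replicate block, removal of a loess trend (span 0.5) on GC content or length, and leaving out each library. GC content and length came from 1 GENCODE 29 transcript per gene, for 17848 genes and all 84 members. The code was tested on simulated data. No column or library was left out.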

Additional observations from a re-analysis of the deposited data

Results flagged for a closer look

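Each value here is a tested difference of response between lines (the log2 difference after 10 Gy in the first line minus that in the second, limma, adjusted p below 0.05), among the members named by rule. There were 34 such values. The difference itself was tested in each case, and its cause was not tested.

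For BEAS-2B minus H446, the response differed by 0.54 for ATP5F1D and 0.42 for ATP5MC1 of ATP synthase, by 0.4 for NDUFS7, 0.34 for NDUFA13 and 0.33 for NDUFS8 of complex I, and by 0.31 for CYC1 of complex III. None of these 6 was called with the GC trend removed, and 3 of them (ATP5F1D, NDUFS8 and CYC1) were called in all 18 fits with a library left out.

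For BEAS-2B minus A549, the response was higher by 0.36 for NDUFS7 and 0.28 for CYC1. Lower values in complex I were -0.65 for NDUFS5, -0.6 for NDUFA2, -0.56 for NDUFB3, -0.3 for NDUFB4 and -0.26 for NDUFS3. In complex IV they were -0.45 for COX7A2, -0.43 for COX7C, -0.41 for COX7B and -0.3 for COX6B1, and in complex II -0.32 for SDHC. Of these 12 members 5 (NDUFS5, NDUFA2, NDUFB3, COX7A2 and SDHC) were called in all 18 fits with a library left out. The others were called in 17 for CYC1, 11 for NDUFB4, 11 for COX7B, 10 for COX7C, 6 for NDUFS7, 6 for NDUFS3 and 5 for COX6B1. All 4 other settings kept the calls of 8 of the 12. CYC1, NDUFB4 and NDUFS7 were not called with the GC trend removed, NDUFB4 and COX6B1 with a replicate block, NDUFS7 and COX6B1 with a pseudocount of 0.1 and NDUFS7 with quantile normalization. With the GC trend removed in each line, BEAS-2B and A549 were at 0.061 and 0.335 for NDUFB4, 0.071 and -0.105 for NDUFS7 and -0.056 and -0.19 for CYC1. The gap of NDUFB4 thus stayed about as large, while those of NDUFS7 and CYC1 were smaller.

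For A549 minus H446, complex I differed by 0.62 for NDUFS5, 0.61 for NDUFA2, 0.55 for NDUFB4, 0.44 for NDUFA3, 0.44 for NDUFA13, 0.43 for NDUFB2, 0.38 for NDUFS3, 0.37 for NDUFB3 and 0.24 for NDUFS8. ATP5MC1 of ATP synthase differed by 0.57, and COX6B1 and COX7A2 of complex IV by 0.42 and 0.35. Complex II had differences of 0.36 for SDHA, 0.22 for SDHC, -0.21 for SDHB and -0.31 for SDHD. Of these 16 members 11 were called in all 18 such fits and 11 under all 4 other settings. NDUFA13, NDUFA3 and NDUFS8 were not called with the GC trend removed, NDUFS8 with a replicate block, COX7A2 with a pseudocount of 0.1 and SDHB with quantile normalization. With the GC trend removed in each line, A549 and H446 were at 0.134 and -0.16 for NDUFA13, 0.125 and -0.234 for NDUFA3 and 0.089 and 0.008 for NDUFS8.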

How the results depend on the processing

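Of 252 values recomputed under other settings or with a library left out, 221 stayed within 1.5 times the count, or within 1 SD of library medians, and 31 moved; the causes were not tested. In H446, the lower members were 6 without a filter on low values, where more genes were tested. With all 18 libraries in 1 fit, 1 was higher and 12 lower. With the GC trend removed 12 were lower and the member median was -0.027, and with the length trend removed 12 were higher and 11 lower with a median of -0.003. For the response of BEAS-2B minus H446, 2 members were called with the GC trend removed and 11 with a replicate block.

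Leaving out 1 library at a time, the H446 members called higher numbered 2 to 4 and the A549 members called lower 4 to 10. For the differences of response, the members called ranged from 3 to 16 for BEAS-2B minus H446, 6 to 19 for BEAS-2B minus A549 and 11 to 23 for A549 minus H446.

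Whether the replicate numbers pair the samples was not settled. Correlations of same-numbered deviations were -0.13, 0.32 and 0.31 in BEAS-2B, 0.19, 0.01 and 0.08 in H446 and 0.01, -0.05 and -0.1 in A549. Not every irradiated library matched the control of its own number best. With the replicate block the members called higher and lower were 0 and 0 in BEAS-2B, 4 and 25 in H446 and 22 and 8 in A549, and of the member counts only that for BEAS-2B minus H446 moved by over 1.5 times, from 7 to 11. Over all genes, the block took the BEAS-2B calls from 0 and 0 to 344 and 95, and all 18 libraries in 1 fit took them to 511 and 350.

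Depth as read counts was not analysed here, so counting error cannot be separated from other error. GC and length values describe 1 transcript per gene. Reads of near copies, overlapping genes and read-through loci are hard to tell apart. With 3 libraries a group, and a larger replicate spread in BEAS-2B, a member without a call is not shown to be unaltered.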
